A study of Mus musculus with 2 samples.

Results

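The microphthalmia (MiT) family of transcription factors, Mitf, Tfe3, Tfeb and Tfec, and the ETS factor PU.1, encoded by Spi1, were followed in osteoclast cultures of wild type and Dnmt3a knockout cells. The 5 genes were found by the RefSeq accession of each probe that was not a control, and 7 probes of the 55649 on the arrays belonged to them: 2 for Mitf, 2 for Tfe3 and 1 each for Tfeb, Tfec and Spi1. All 5 were among the 13479 genes, of 20654 named on the arrays, that were measured well above background in both genotypes. Osteoclasts are bone-resorbing cells that arise when macrophage precursors fuse. Marrow cells of female C57BL/6 mice that did not adhere were grown, per the labels, with the macrophage growth factor M-CSF, and the precursors that then adhered received RANKL, the osteoclast-inducing cytokine, beside M-CSF. The wild type group and the Dnmt3a knockout group each had 1 Cy3 Agilent array, of total RNA, and differed by the Dnmt3a genotype alone as far as the labels say. The knockout allele, the cells that had lost the gene, the age of the mice and the number of mice behind each culture are not given in the sources used here.

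MiT factors bind DNA as dimers with each other through a basic helix-loop-helix leucine zipper, so that a cell's MiT activity depends on several related genes. In osteoclasts Mitf and Tfe3 overlap in function: loss of either alone is tolerated in mouse bone, whereas loss of both, or a dominant-negative Mitf allele, gives osteopetrosis. Tfeb and Tfe3 are held in the cytoplasm by the nutrient sensor mTORC1 and switch on lysosome and autophagy genes when released, and Tfec is a member found mainly in cells of the macrophage lineage. PU.1 is needed for the macrophage and osteoclast lineages as a whole and partners Mitf on genes such as Acp5 and Ctsk.

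Each genotype had a single array, hence no replicates, and the values below carry no p-value. Signals are the scanner software's processed intensities, and a difference is the log2 signal of the knockout array minus that of the wild type array after each array was scaled to its own 75th percentile. After each difference, ± gives the error that the scanner software assigns to both spots, on the log2 scale (median 0.20). How cultures or mice vary is outside that error. For 259 probes spotted many times, the SD of the difference over a probe's spots was smaller, with a median of 0.066. Spots well above background made up 52.7% of the wild type and 59.7% of the knockout array, 0 were saturated, and both arrays lay on 1 slide scanned in 1 run. The Dnmt3a probe read 7042 in wild type and 1822 in knockout cells, a difference of -1.92 ± 0.20, but its place relative to the deletion is unknown. All 9 osteoclast markers, Acp5 and Ctsk among them, were well above background on both arrays.

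Over the 5 genes, the differences between the genotypes were small and went both ways. Tfe3 (0.33 ± 0.20, 1.26-fold higher on the knockout array) and Tfeb (0.21 ± 0.20, 1.16-fold higher) lay above 0, and Mitf (-0.18 ± 0.20, 1.13-fold lower), Spi1 (-0.087 ± 0.20) and Tfec (-0.013 ± 0.20) lay below it. Of the 5 genes, 0 were past 1.5-fold in either direction, beside 10.5% of all measured genes. None of the 5 was 2-fold higher (0.824% of all measured genes) or 2-fold lower (0.727%), and 1.55% of all measured genes were past 2-fold in one direction or the other. The SD over all measured genes was 0.37. Of the 7 probes, 4 differed by more than their scanner error and 0 by more than 2 such errors. That error was 0.20 for all 7, so these counts apply 1 cutoff and hold no precision particular to a probe. The median of the 5 genes was -0.013, beside 0.014 over all measured genes. The signs of Tfe3 and Tfeb hold relative to the bulk of the genes: when the arrays were scaled to 8 spike-in control probes in place of the 75th percentile, every difference dropped by 0.53, the median of all genes became -0.52, and all 5 genes lay below 0.

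**Figure D1:**
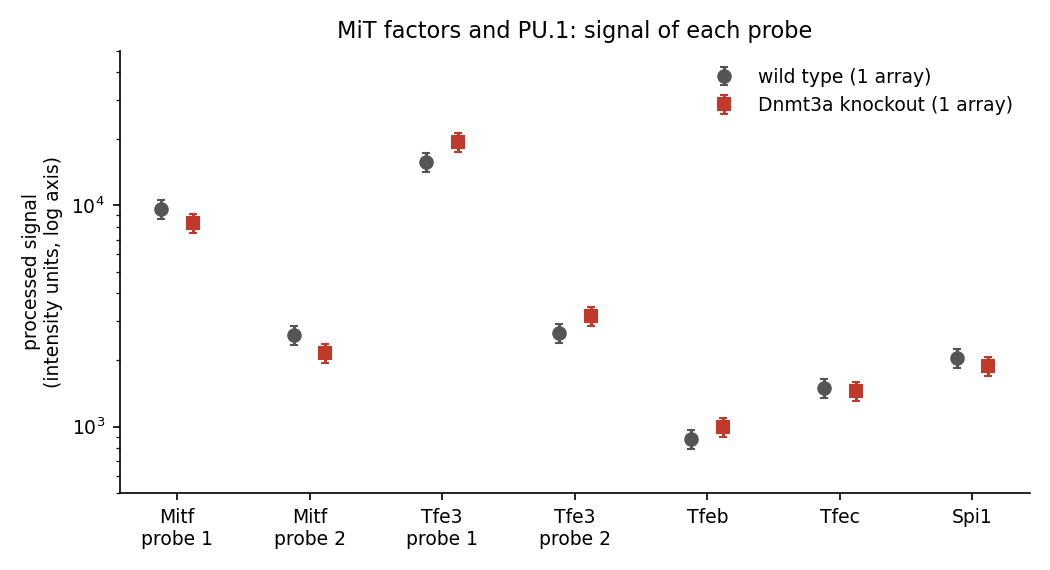
Processed signal (intensity units, log axis) of each of the 7 probes on the wild type array (grey circles) and the Dnmt3a knockout array (red squares), before scaling between arrays; bars are the scanner software's error of the spot. Both Tfe3 probes and the Tfeb probe read higher on the knockout array, and both Mitf probes lower, but the bars of the 2 arrays overlap for every probe except the brighter Tfe3 probe; heights of different probes cannot be compared.

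Mitf, the founding member of the family, was read by 2 probes designed to 1 transcript accession (NM_001113198). The brighter one read 9592 ± 959 in wild type and 8292 ± 829 in knockout cells. The second gave 2601 ± 260 and 2155 ± 216. Both were therefore lower on the knockout array, with differences of -0.18 ± 0.20 and -0.24 ± 0.20, the first within its scanner error and the second just beyond it. Their gap of 0.062 was small for such pairs, since 71.6% of the 2840 genes with 2 measured probes had a larger gap between them. Of all measured genes, 24.4% lay below the value of the brighter Mitf probe. Mitf has several promoters and first exons, and these arrays give no separate value for each isoform.

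Tfe3, the widely expressed member that can stand in for Mitf in osteoclasts, was also read by 2 probes of 1 accession (NM_172472). Its brighter probe read 15709 ± 1571 in wild type and 19379 ± 1938 in knockout cells, and its second 2642 ± 264 and 3172 ± 317. The knockout signal was the higher one for both probes. The scaled differences were 0.33 ± 0.20 and 0.29 ± 0.20, or 1.63 and 1.44 times the scanner error. The probes differed by 0.039 from each other, and 81.4% of the genes with 2 measured probes had a larger gap. Tfe3 was the member farthest from 0, yet 15.3% of all measured genes had a higher difference and 28.5% were at least as far from 0. Scaled to single spike-in probes, the brighter probe ranged from -0.39 to 0.035.

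Tfeb, the main switch of lysosome genes in many cells, read 877 ± 88 in wild type and 997 ± 100 in knockout cells with its only probe (NM_001161722). The difference of 0.21 ± 0.20 equalled 1.05 times its scanner error, and 23.8% of all measured genes had a higher value. Its wild type signal was 34.0 times the lowest signal of any probe well above background on that array.

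Tfec, whose expression is largely confined to macrophage-lineage cells, read 1494 ± 150 in wild type and 1451 ± 145 in knockout cells (NM_031198). Its difference of -0.013 ± 0.20 was close to the median of all genes, and 96.5% of them were at least as far from 0. Spi1 read 2042 ± 204 in wild type and 1884 ± 188 in knockout cells (NM_011355), a difference of -0.087 ± 0.20, with 35.6% of all measured genes below it. For both genes the arrays' signals overlapped within the scanner error, which does not show the genes to be equal in the cultures. In a bulk culture, fewer cells of a type and less RNA per cell cannot be told apart for any of these values.

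**Figure D2:**
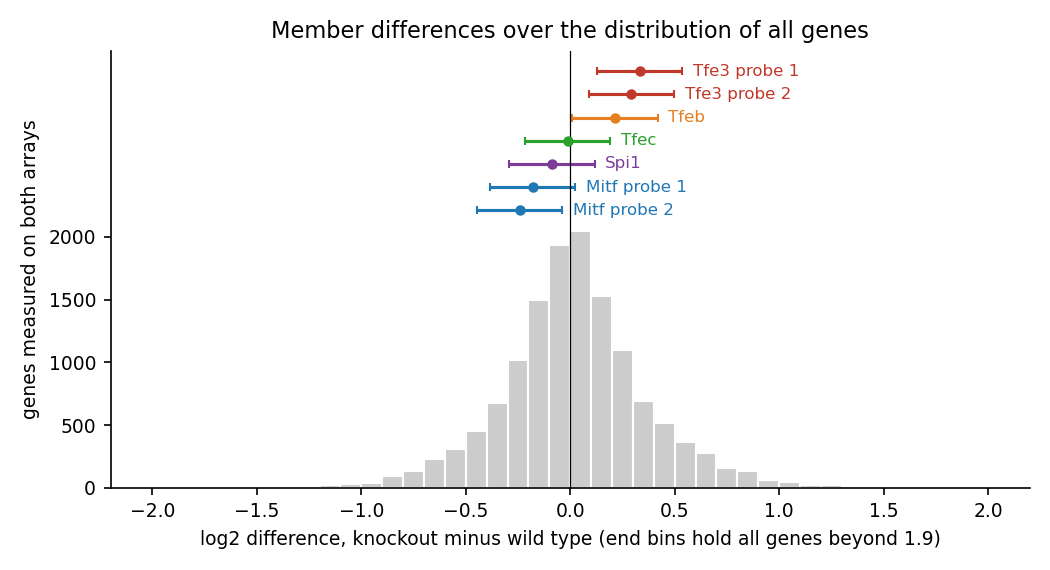
Log2 difference (knockout minus wild type, x axis) of the 7 probes, as points with the scanner error of the difference, over a histogram of the 13479 genes measured on both arrays (y axis, number of genes; the vertical placing of the points has no scale). All 7 points lie within the bulk of the distribution, Mitf on its left and Tfe3 and Tfeb on its right; with spike-in scaling all 7 lie below 0.

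The members could be set against each other free of the scaling, since a common factor per array cancels in the gap between 2 genes' differences. Tfe3 and Mitf were the ends of the group: by the brighter probes their differences were 0.51 ± 0.29 apart, so that the Tfe3 signal over the Mitf signal was 1.43 times as high on the knockout array as on the wild type array. With the other probes of both genes the gap was 0.47 to 0.57, between 1.64 and 1.99 times its scanner error. Tfeb stood 0.39 ± 0.29 above Mitf and 0.30 ± 0.29 above Spi1, and Tfe3 stood 0.42 ± 0.29 above Spi1 and 0.35 ± 0.29 above Tfec. Of the 10 pairs of genes, 5 had a gap larger than its scanner error, 0.29 for every pair, and 0 a gap of more than 2 such errors. Tfe3 and Tfeb (0.12 apart), Tfec and Spi1 (0.074) and Spi1 and Mitf (0.093) were neighbours whose gaps lay within the error, as did those of Tfeb and Tfec (0.23) and of Tfec and Mitf (0.17).

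The order of the differences, Tfe3 highest, then Tfeb, Tfec, Spi1 and Mitf, was the same in all 10 settings tried, the main one included. Median, bright-probe and spike-in scaling and the value table apply 1 factor per array and could not change it. Keeping marked spots left the members' values as they were. Under quantile normalization, normexp, the mean of a gene's probes and neighbourhood subtraction, which could change it, Tfe3 stood 0.50 to 0.53 above Mitf. Tfe3 and Tfeb were above 0 in 9 of the 10 settings, all but spike-in scaling, and Mitf and Spi1 were below 0 in each of the 10. Tfec was below 0 in 9 and at 0.072 after normexp background correction. Scaling to each array's median moved the median of all genes to -0.18 and left Tfe3 at 0.14 and Tfeb at 0.019. Position on the array moved the members little: the spots around the 7 member spots had median differences from 0.00058 to 0.051.

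**Figure D3:**
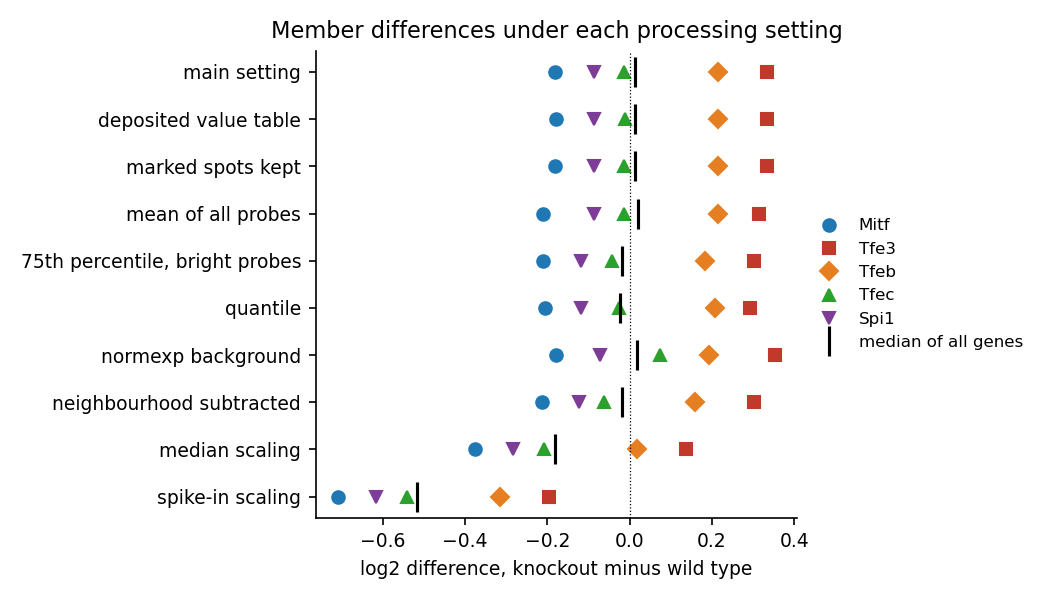
Log2 difference (x axis) of the 5 genes, by the brighter probe where there are 2 (or the mean of both in that setting), under the main setting and 9 alternatives (rows), with the median of all measured genes as a black bar. The order of the 5 genes is the same in every row, but rows that only apply 1 factor per array could not change it. Tfe3 and Tfeb lie above 0 in every row but spike-in scaling, where the median of all genes is -0.52.

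Genes that set the activity and location of MiT factors differed little. Of 33 such genes, Rragb was not well above background on either array. The other 32 had a median of 0.019, which turned negative under spike-in (-0.51), median (-0.18), quantile and bright-probe scaling and with neighbourhood medians subtracted. Of them 21 lay above 0 (51.9% of all measured genes did) and 0 were past 1.5-fold. The highest were Mapk3 (0.54 ± 0.20), the ERK kinase that acts on Mitf downstream of growth factor receptors, and Rragd (0.51 ± 0.25) and Rragc (0.40 ± 0.20), small GTPases that bring Tfeb and Tfe3 to the lysosome. Mapk3 read 10897 in wild type and 15494 in knockout cells, and its other probe gave 0.58. Rragc read 14640 and 18943 (its other probe 0.45), while Rragd was dim at 68.5 and 95.4. Among the lowest were the nuclear exportin Xpo1 (-0.16, its other probe -0.29) and the adaptor Ywhae (-0.096). With spike-in scaling Mapk3 stood at 0.0086, Rragd at -0.021 and Rragc at -0.13.

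Genes described as targets of MiT factors or PU.1 in osteoclasts or pigment cells were mostly lower on the knockout array, and unevenly so. Cdk2 and Bcl2 are among those described in pigment cells. Of 10 such genes 9 lay below 0, as did 48.1% of all measured genes, and their median was -0.24. Oscar, the collagen receptor that costimulates osteoclasts, read 20502 in wild type and 12159 in knockout cells (-0.72 ± 0.20). Atp6v0d2, a proton pump subunit also needed for cell fusion, read 40067 and 25564 (-0.62 ± 0.20, its other probe -0.76). These 2 were past 1.5-fold lower, as 4.69% of all measured genes were, and the fusion receptor Dcstamp (35677 and 24093, -0.54 ± 0.20) was not.

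The classical osteoclast enzymes differed less. Acp5, the tartrate-resistant acid phosphatase, read 451856 and 442434, a difference of -0.00055 ± 0.20 (its other probe -0.075), and Ctsk, the collagen-degrading cathepsin, read 413301 and 356772 (-0.18 ± 0.20). The chloride transporter Clcn7 (-0.18 ± 0.20) and its subunit Ostm1 (-0.29 ± 0.20), which acidify the resorption space together, and the cell cycle kinase Cdk2 (-0.33 ± 0.21) and the survival factor Bcl2 (-0.078 ± 0.21) were also below 0. The 1 target above 0 was Gpnmb, a glycoprotein of osteoclasts and macrophages, with 140013 in wild type and 186571 in knockout cells (0.44 ± 0.20); with spike-in scaling it too was below 0, at -0.085. Acp5, Atp6v0d2, Ctsk, Dcstamp and Oscar are also osteoclast markers. The 9 markers of that list had a median of -0.58, all of them below 0, as were 48.1% of all measured genes. The other 5 targets had a median of -0.18. The part of the osteoclast content of the cultures in these values was not tested.

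**Figure D4:**
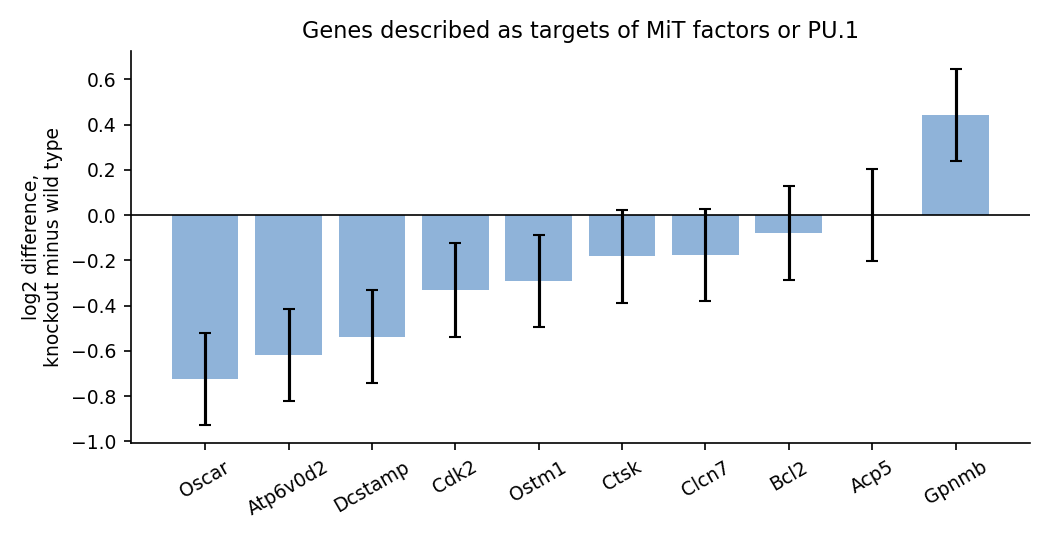
Log2 difference (y axis, knockout minus wild type) of 10 genes described as targets of MiT factors or PU.1 in osteoclasts or pigment cells. Genes run along the x axis, lowest first, and the error bars are the scanner error of the difference. Oscar, Atp6v0d2 and Dcstamp are lowest, Acp5 lies close to 0 and Gpnmb is the 1 gene above 0; with spike-in scaling all 10 lie below 0.

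The start regions of the members and targets were searched for the motifs that MiT factors and PU.1 are known to bind. Windows from 250 bases before to 50 after annotated starts, from RefSeq on GRCm38.p6, were found for 4 of the 5 members (9 windows) and 8 of the 10 targets (11 windows); those of Spi1, Dcstamp and Atp6v0d2 were not analysed here. They were searched on both strands for the M-box CATGTGA, the E-box CACGTGA and the PU-box GAGGAA, which 3.99%, 3.77% and 28.3% of all 32851 windows hold. Among the members' windows, 1 held a PU-box, that of Tfec, and 0 of 9 held an M-box or E-box. Of the targets' 11 windows, 2 held an M-box (Acp5 and Oscar) and 1 an E-box (Clcn7). A PU-box was in 3 of the 11 (Ctsk, Oscar and Bcl2), near its share of 28.3% over all windows. A match is a description of letters and not a bound site.

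The windows below are those of the member with a match and of the targets with an M-box or E-box, printed 5′ to 3′ on the gene's strand with the matches in capitals. They lie at chr6:16898392-16898691 (minus strand, Tfec), chr9:22130549-22130848 (minus strand, Acp5, the window of 1 of its 3 starts), chr7:3616108-3616407 (minus strand, Oscar) and chr17:25133141-25133440 (plus strand, Clcn7, 1 of its 2 starts).
Tfec: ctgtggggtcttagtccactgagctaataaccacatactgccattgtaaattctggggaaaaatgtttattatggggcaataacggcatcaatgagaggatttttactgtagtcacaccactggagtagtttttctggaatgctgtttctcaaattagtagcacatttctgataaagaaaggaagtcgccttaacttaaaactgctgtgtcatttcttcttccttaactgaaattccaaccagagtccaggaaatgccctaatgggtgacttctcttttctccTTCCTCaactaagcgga
Acp5: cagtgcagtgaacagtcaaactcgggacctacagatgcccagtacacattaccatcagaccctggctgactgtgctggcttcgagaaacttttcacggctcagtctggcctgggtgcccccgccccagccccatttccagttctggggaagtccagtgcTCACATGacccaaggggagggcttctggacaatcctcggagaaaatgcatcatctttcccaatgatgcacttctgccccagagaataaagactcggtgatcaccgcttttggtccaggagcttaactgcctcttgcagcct
Oscar: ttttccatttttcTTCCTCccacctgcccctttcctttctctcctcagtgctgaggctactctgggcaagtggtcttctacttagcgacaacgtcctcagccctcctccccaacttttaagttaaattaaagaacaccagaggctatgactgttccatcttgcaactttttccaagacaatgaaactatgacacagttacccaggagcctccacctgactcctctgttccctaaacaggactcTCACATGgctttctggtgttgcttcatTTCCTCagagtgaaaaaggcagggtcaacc
Clcn7: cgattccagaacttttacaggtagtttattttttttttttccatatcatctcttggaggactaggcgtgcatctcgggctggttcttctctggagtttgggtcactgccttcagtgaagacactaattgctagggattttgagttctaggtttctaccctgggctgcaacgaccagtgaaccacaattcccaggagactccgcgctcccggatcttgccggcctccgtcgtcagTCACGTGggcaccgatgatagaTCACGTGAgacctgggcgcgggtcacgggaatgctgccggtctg
In Acp5 the capitals mark an M-box, read on the opposite strand, that begins 91 bases before the start. In Oscar they mark an M-box 7 bases before the start and a PU-box on either side of it. In Clcn7 the E-box stands 16 bases before the start and again from base 7 after it, where the palindrome matches on both strands. In Tfec the PU-box begins at base 34 after the start.

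Lysosome and autophagy genes of the CLEAR group, the targets through which Tfeb and Tfe3 enlarge the lysosomal compartment, went both ways. All 33 were measured, 23 of them above 0 (51.9% of all measured genes), with a median of 0.087 (-0.11 with median scaling) and 0 past 1.5-fold (10.5% of all measured genes). Pip4p1, a lysosomal lipid phosphatase (1987 and 2907, 0.58 ± 0.20), the membrane protein Lamp2 (9923 and 13438, 0.47 ± 0.20, its other probe 0.57) and the protease Ctsl (74234 and 99262, 0.45 ± 0.20) were highest. The proton pump subunits Atp6v1h (5460 and 3972, -0.43 ± 0.20) and Atp6v0e (126983 and 104776, -0.25 ± 0.20) were among the lowest. With spike-in scaling the median of this list was -0.44, Lamp2 and Ctsl were below 0, and Pip4p1 stood at 0.050.

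Myeloid genes described as PU.1 targets lay mostly above 0, while Spi1 itself was at -0.087. Cd68 is not analysed here. Of 21 measured genes 16 lay above 0, beside 51.9% of all measured genes, with a median of 0.31. Past 1.5-fold higher were 9 (5.82% of all measured genes), and 1 was past 2-fold lower (0.727% of all measured genes). The Fc receptors Fcgr1 (2853 and 5182, 0.89 ± 0.20) and Fcgr3 (10397 and 18442, 0.86 ± 0.20) and the lysozyme Lyz2 (110198 and 196213, 0.86 ± 0.20) were highest, and all 3 stayed above 0 with spike-in scaling, between 0.33 and 0.36. Tnfrsf11a, which encodes the RANKL receptor RANK, was lowest, with 11355 in wild type and 4846 in knockout cells (-1.20 ± 0.20). Itgam (-0.27 ± 0.20) had further probes at 0.22 and 0.32, so its probes disagree, and Csf2ra, a chain of the GM-CSF receptor, was at -0.20 ± 0.20. With spike-in scaling the list's median was -0.22.

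Cell type markers moved beside these lists. All 7 measured macrophage markers lay above 0, as did 51.9% of all measured genes. Their median was 0.69, 0.17 with spike-in scaling, and their summed scaled signal was 101 in wild type and 172 in knockout cells. All 9 neutrophil markers lay above 0 (median 0.49, or -0.035 with spike-in scaling, summed signal 260 and 348), as did all 5 measured dendritic markers (median 0.63, 0.40 after normexp, 0.10 with spike-in scaling, summed signal 1.26 and 1.72), of 6 on the arrays with Xcr1 not well above background. Adgre1, Cd14 and Msr1 are on both the PU.1 and the macrophage list. Without them the 18 other PU.1 targets had a median of 0.21, with 13 above 0 (51.9% of all measured genes) and 7 past 1.5-fold higher (5.82%). Of the other cell types that depend on Mitf, the mast cell markers Fcer1a, Ms4a2, Mcpt4 and Cma1 and the melanocyte markers Dct, Tyrp1 and Slc45a2 were not well above background on either array, and the mast cell marker Cpa3 was above it on the knockout array only. The 3 measured mast cell markers had a median of 0.46 (-0.064 with spike-in scaling, and 0.093 over all 8 when dim probes were kept) and the 4 measured melanocyte markers one of 0.090 (-0.44), and the summed scaled signals of these lists were 0.87 and 1.11 (8 mast cell genes) and 0.61 and 0.64 (7 melanocyte genes). B lymphocyte markers, another PU.1-dependent lineage, had a median of 0.18 over 6 of 7 genes, -0.014 with median scaling and -0.35 with spike-in scaling (summed signal 9.33 and 10.4). Stromal markers had a median of -0.89 over 6 of 8 genes (summed signal 46.3 and 26.9). The part of these cell types in the members' and targets' values was not tested.

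Of the partners and antagonists of PU.1 all 19 were measured, 15 of them above 0 beside 51.9% of all measured genes, with a median of 0.23. Past 1.5-fold was 1 of the 19, near the share of 5.82% of all measured genes that were as much higher: Irf8, the interferon regulatory factor that binds DNA with PU.1 and restrains osteoclast formation (10930 and 17203, 0.68 ± 0.20). Cebpd (14724 and 21628, 0.58 ± 0.20), a C/EBP factor of myeloid cells, and the lymphoid factor Ikzf1 (301 and 439, 0.57 ± 0.21) followed. Egr1 (-0.29 ± 0.20), Gata2 (-0.21 ± 0.27) and Gata1 (-0.12 ± 0.21), of which the GATA factors oppose PU.1 in erythroid cells, were lowest. With spike-in scaling the list's median was -0.29, and Irf8 was at 0.16.

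The members' relatives by DNA-binding domain were taken next. The ETS factor Erg was not well above background on either array. Of 15 measured ETS factors other than PU.1, 10 lay above 0 (median 0.072) and 0 were past 1.5-fold, beside 51.9% and 10.5% of all measured genes. Fli1 (2329 and 3417, 0.58 ± 0.20), Elk3 (0.29 ± 0.20, further probes 0.098 and 0.16) and Etv3 (0.23 ± 0.20) were highest, and Ets2 (-0.16 ± 0.20), Elf4 (-0.073 ± 0.28) and Elk1 (-0.046 ± 0.20, its other probe 0.47) were lowest. Of 18 basic helix-loop-helix leucine zipper factors outside the MiT family 15 were measured, and 8 lay above 0 (median 0.066) and 1 was past 1.5-fold higher, near the shares of 51.9% and 5.82% over all measured genes. Usf1 (128 and 189, 0.59 ± 0.22) and Usf2 (104819 and 150179, 0.55 ± 0.20, its other probe 0.44), which read E-boxes like those of MiT factors, and the Myc antagonist Mxd1 (0.49 ± 0.20, its other probe 0.27) were highest. Myc (586 and 388, -0.57 ± 0.21), Mlxip (-0.56 ± 0.21, its other probe -0.076) and Srebf1 (-0.24 ± 0.22) were lowest. With spike-in scaling the medians of both lists were -0.46, and with median scaling they were -0.12 (ETS) and -0.13 (leucine zipper).

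**Figure D5:**
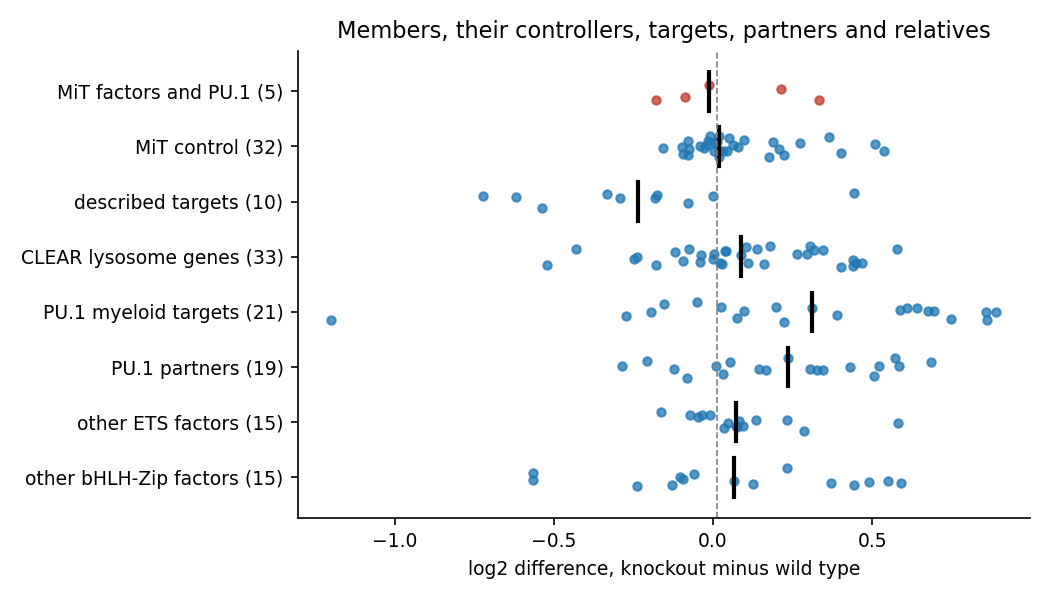
Log2 difference (x axis, knockout minus wild type) of every measured gene, 1 point each, of the 5 members (red) and of 7 gene lists (blue; the number of genes is in brackets, the vertical scatter has no scale), with each list's median as a black bar and the median of all measured genes (0.014) as a dashed line. The members spread over 0.51, the PU.1 targets from -1.20 to 0.89, and 9 of 10 described targets lie below 0 (48.1% of all measured genes). Spike-in scaling shifts all points left by 0.53.

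By the rule of nearest difference over the 2 arrays, the listed genes most like each member were Ctsk (-0.18) and Glb1 (-0.18) for Mitf (-0.18), Bcl6 (0.33) and Gfi1 (0.34) for Tfe3, Tsc2 (0.21) and Fes (0.22) for Tfeb, Tsc1 (-0.010) and Lamtor4 (-0.016) for Tfec, and Jun (-0.082) for Spi1, each within 0.012 of the member's difference. With 1 difference per gene this likeness is a description of these arrays only.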

How the data were processed

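RNA of 1 wild type and 1 Dnmt3a knockout osteoclast culture was read on 1 array each. Per the file headers, the deposited intensity of a spot had its background subtracted and spatial trends removed, with Agilent software (Feature Extraction 10.10.1.1, following GE1_1010_Sep10, on an mm9 probe design); version 9.1 is the one in the submitters' processing notes. The deposited value table is the same intensity times 1 factor per array (1.55 and 1.54; column medians 59.6 and 66.5), with no centring, and the choice of factor is unknown. The files' marks for spots above background and for uneven or outlying spots were used as the authors deposited them.

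Log2 values of the deposited intensities were scaled to each array's 75th percentile over 59305 spots; marked spots were left out and spots of a probe averaged. Probes were named by accession through a RefSeq table of GRCm38.p6 (27224 of 55649 probes), and the brightest probe stood for a gene, measured where most of its spots were well above background on both arrays. Normexp (limma 3.58.1, R 4.3.3, offset 50) used the median spot signal in place of the planned mean one. Scaling was tested on simulated arrays with a constant shift and known differences in some genes. That setting cannot tell which scaling is right if most genes change together. Members and gene lists were chosen with earlier results of these data known. Named genes are the members, Dnmt3a, the 10 described targets, the 3 highest and 3 lowest of each other list, and the 2 nearest to each member; a few genes that this rule names are not reported here. The number of arrays, 1 a group, limits the precision. Alternatives were median, bright-probe, quantile and spike-in scaling, normexp, the value table, the mean of a gene's probes, marked spots kept, no filter on dim probes and, chosen after the data were seen, subtracting the median difference of each array neighbourhood.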

Additional observations from a re-analysis of the deposited data

How the results depend on the processing

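A value was held to have moved when it shifted by at least the scanner error of the difference (counts: by over 1.5 times). Of 349 recomputed values, 305 did not move and 44 did. Median, bright-probe and spike-in scaling and the value table each shift all differences and list medians by the same amount. Their scores for these were thus set by that amount, which for median scaling fell just under the cutoff. The 2 counts are therefore no measure of how stable the results are. Of recomputed values past 2-fold, 0 changed sign, but Dnmt3a alone among the recomputed differences and medians was that far from 0 in the main setting. Tnfrsf11a (-1.20) was not among the values recomputed. Smaller values did change sign, among them Tfe3 and Tfeb with spike-in scaling and the CLEAR, ETS and MiT control medians with median scaling. The members moved under spike-in scaling alone, to -0.71 (Mitf), -0.20 (Tfe3), -0.32 (Tfeb), -0.54 (Tfec) and -0.62 (Spi1). Spike-in scaling also moved the medians of the lists, to -0.51 (MiT control), -0.77 (described targets), -0.44 (CLEAR genes), -0.22 (PU.1 targets), -0.29 (PU.1 partners), -0.46 (ETS) and -0.46 (helix-loop-helix zipper), since all differences shift by the same amount. The single spike-in probes ranged from 0.30 to 0.72 after the main scaling. Genes at least 2-fold higher and lower numbered 111 and 98 in the main setting (53.1% higher), 46 and 223 with median scaling (17.1%), 18 and 1009 with spike-in scaling (1.75%), 86 and 130 with quantile normalization (39.8%), 42 and 26 after normexp, and, keeping dim probes, 1184 and 466 (71.8%). The 2 arrays cannot separate genotype from culture. No paired analysis was possible because each group has 1 array.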
